A study of Mus musculus with 6 samples.

Results

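The 9 genes described here are long noncoding RNAs of the nucleus or of small nucleolar RNA (snoRNA) loci: Malat1, Neat1, Gas5, Snhg1, Snhg3, Snhg5, Snhg6, Snhg8 and Snhg12. They were taken by symbol, 1 gene ID each, from a deposited table of 54532 genes. The rule uses no difference between the groups, and takes the ID with the higher mean where a symbol has several. Of the 9, 8 averaged 1 FPKM or more over the libraries and entered the test, as did 12266 genes in all. FPKM is the number of fragments scaled to transcript length and to the fragments mapped in the library, a level that can be compared between genes only as far as the transcript length behind it is right.

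The RNA came from cells sorted on CD11c, an integrin of dendritic cells and some other myeloid cells, out of mouse melanomas. The tumours were grown from a BRAFV600E melanoma line. In the Gli2CA group (3 libraries) the implanted line carried an active form of the Hedgehog transcription factor Gli2, and in the NTC group (3 libraries) a non-targeting control. Cells of both kinds were cultured with puromycin, implanted with Matrigel into C57BL/6 mice, and the tumours were taken on day 28. The engineered difference was thus in the tumour cells, while the sorted host cells carried no labelled alteration. The labels give neither the age of the mice nor whether each library was from its own mouse, nor whether the line was 1 clone, so p-values measure only the spread between these libraries.

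Malat1 is retained in nuclear speckles, where splicing factors gather. It has no ordinary poly(A) tail: its end is made by cleavage at a tRNA-like fold and is held by a triple helix of U-rich and A-rich stretches. Neat1 is the scaffold of paraspeckles, nuclear bodies that form only around its long isoform, while its short isoform is polyadenylated. The snoRNA hosts carry snoRNAs in their introns, which guide modification of ribosomal and other RNAs. Their spliced exons are often removed by nonsense-mediated decay when translated, and several begin with the pyrimidine tract of ribosomal protein mRNAs. Such 5′ terminal oligopyrimidine (TOP) transcripts are controlled in translation by mTORC1. Gas5, named for its accumulation in growth-arrested cells, has also been described as a decoy of the glucocorticoid receptor.

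The libraries held 18785804 to 29134475 fragments, recovered from the steps of the FPKM values. They were not of equal complexity. With every library thinned to 18760000 fragments, the number of genes with a read was 11350 in NTC 1, 11575 in NTC 3, 14091 in NTC 2 and 13948 to 15161 in Gli2CA. Mitochondrial transcripts took 0.355, 0.714 and 0.297% of FPKM in NTC 1, 2 and 3 and 0.777, 0.757 and 0.716% in Gli2CA 1, 2 and 3. NTC 1 and NTC 3 thus stood apart from the other 4 libraries in both measures, and the main results are given with and without them. Of 10 conventional dendritic cell markers, 10 were above 0 in every library. This cannot test the label, since 10 of 10 monocyte and macrophage markers and 12 of 12 T or NK cell markers were too. The values of these and of other cell markers stand after the gene lists.

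**Figure D1:**
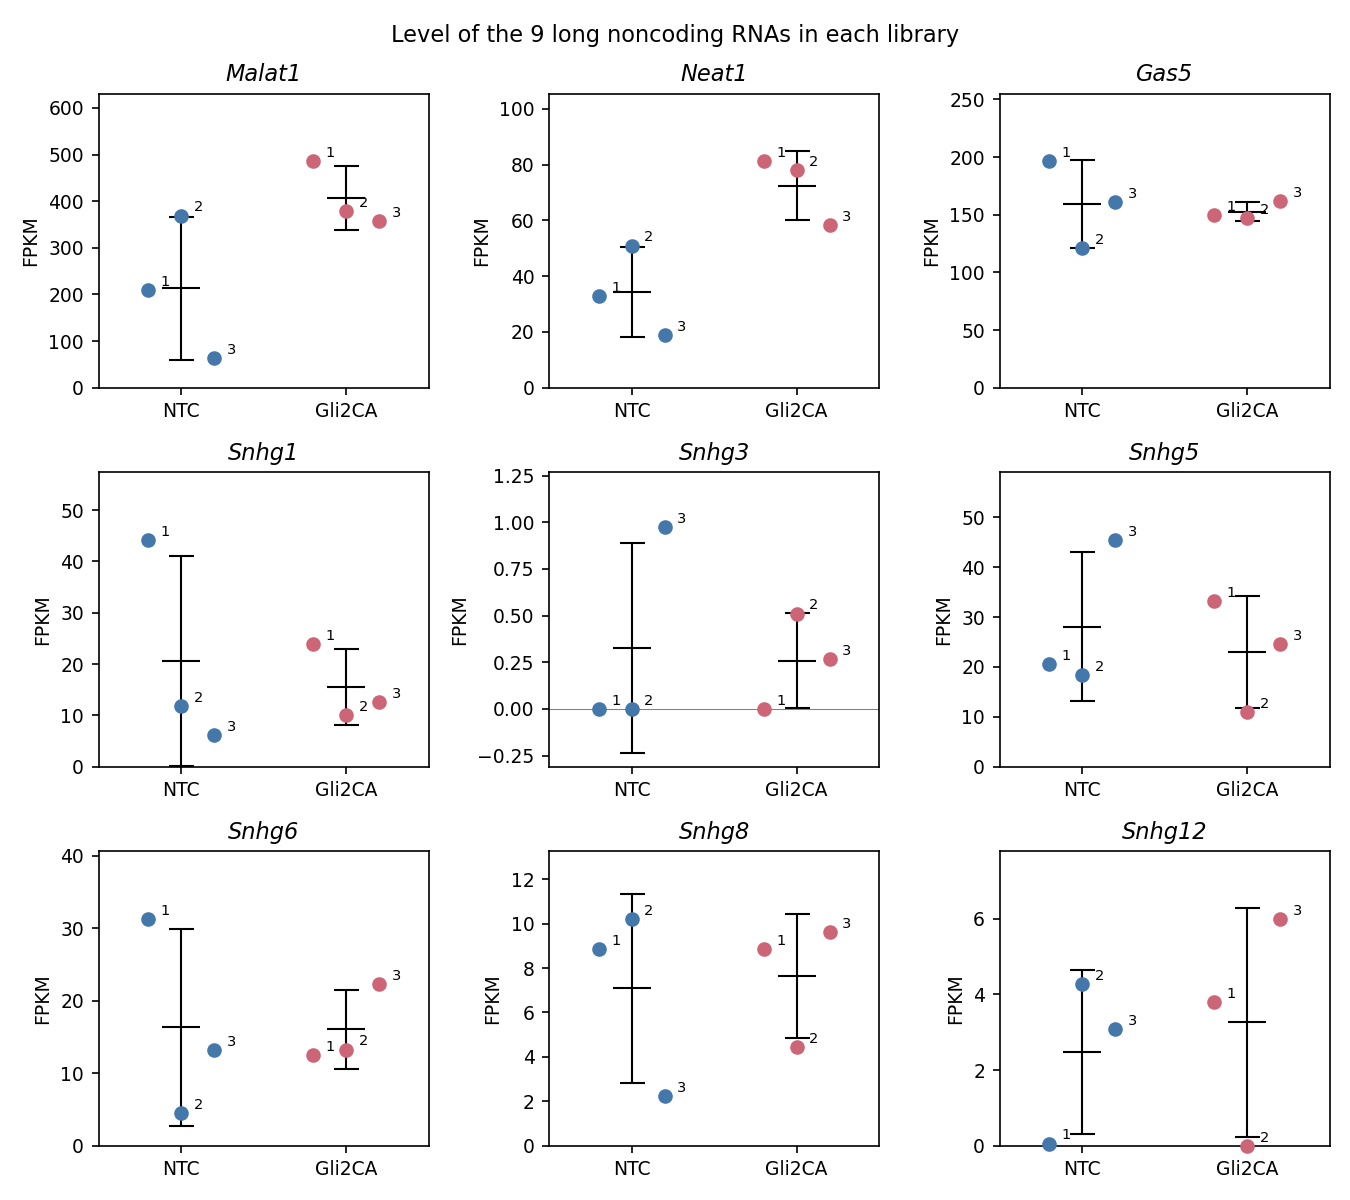
FPKM of each long noncoding RNA (y axis, linear, 1 panel per gene) in the 3 NTC and 3 Gli2CA libraries (x axis); points are libraries with their number, the long bar is the group mean and the whiskers are 1 SD. The Gli2CA libraries lie above all NTC libraries for Neat1 alone, at 58.3 to 81.2 against 18.9 to 51.0 FPKM.

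Malat1 was the most abundant of the 9, and its mean was higher in Gli2CA, but the NTC libraries spread widely and the difference did not pass the test. Malat1 (ENSMUSG00000092341, GRCm38 chr19:5795690-5802672, minus strand, a GENCODE lincRNA with 4 annotated transcripts) had 209, 369 and 62.6 FPKM in NTC 1, 2 and 3 and 485, 378 and 358 in Gli2CA 1, 2 and 3. NTC 3 was the lowest library and Gli2CA 1 the highest, and the groups overlapped because NTC 2 lay between the Gli2CA values. These levels stood on 2707 reads in NTC 3 and 7340 to 26402 in the other libraries, so counting error was small beside the spread. The means were 214 ± 153 in NTC and 407 ± 68.6 in Gli2CA (SD, n = 3 each). The log2 difference on the log2(FPKM + 1) scale was 1.25 ± 0.57 (SE), with a 95% interval of -0.05 to 2.54 (limma adjusted p = 0.479). Ranked among the 12266 genes from the highest FPKM down, Malat1 was at place 2312 in NTC 3 and at places 224 to 647 elsewhere.

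The tract that Malat1 is known for near its end can be read from its annotated transcript. It is shown because the libraries were made from RNA bound to poly-T beads, and this RNA has no ordinary tail. Of the 6983 bases of the longest GENCODE M21 transcript, positions 6574 to 6695 (GRCm38 chr19:5795978-5796099, minus strand) read as follows, 5′ to 3′, with the run of 12 A in capitals:
Malat1 stretch with the A run: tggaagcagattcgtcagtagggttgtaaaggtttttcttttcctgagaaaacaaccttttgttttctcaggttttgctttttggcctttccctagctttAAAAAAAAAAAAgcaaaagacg
It is the only run of 10 or more A in that transcript, starting at position 6674. The share of Malat1 molecules that the beads retained was not measured.

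Neat1 was the only member whose groups did not overlap, and it was higher in Gli2CA. Neat1 (ENSMUSG00000092274, GRCm38 chr19:5824708-5845478, minus strand, lincRNA, 22035 bp from Malat1) had 33.0, 51.0 and 18.9 FPKM in NTC 1, 2 and 3. In Gli2CA 1, 2 and 3 it had 81.2, 77.9 and 58.3 FPKM. All 3 Gli2CA libraries lay above all 3 NTC libraries, with the narrowest gap between Gli2CA 3 and NTC 2. Reads numbered 2799 to 9067 in NTC and 9474 to 15086 in Gli2CA. The means were 34.3 ± 16.1 and 72.5 ± 12.4 (SD, n = 3 each), a ratio of 2.11. The log2 difference was 1.15 ± 0.46 (SE), with a 95% interval of 0.10 to 2.20, an unadjusted limma p of 0.0359 and a Benjamini-Hochberg adjusted p of 0.434. It did not pass.

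These counts are read against the whole table. Groups did not overlap for 1 of 8 tested members and for 16.6% of the 12266 genes. For higher values in Gli2CA the background was 10.9%. An unadjusted limma p under 0.05 was found for 1 of 8 members, Neat1, and for 10.6% of all genes, or 7.82% counting only those higher in Gli2CA. The adjusted p was under 0.05 for 0 of 8 members and for 0.0% of all genes, that is 0 of 12266 by limma, of which 1304 had an unadjusted p under 0.05. By limma's voom on the recovered reads the count was also 0.

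Malat1 and Neat1 were lowest in NTC 1 and NTC 3, the libraries of low complexity. Within NTC both were highest in NTC 2, then NTC 1, then NTC 3, and within Gli2CA both were highest in Gli2CA 1, then Gli2CA 2, then Gli2CA 3. Together they took 0.0273, 0.0516 and 0.00954% of FPKM in NTC 1, 2 and 3 and 0.0690, 0.0551 and 0.0493% in Gli2CA 1, 2 and 3. The groups overlapped, since NTC 2 lay above Gli2CA 3. The means were 0.0295 ± 0.0211% and 0.0578 ± 0.0101% (SD, n = 3 each), and an exact two-sided permutation test gave p = 0.2, where 3 against 3 libraries cannot give less than 0.1. Without both NTC 1 and NTC 3, an alternative added after the data were seen, the difference in share was 0.00621 percentage points in place of 0.0283. Without NTC 3 the log2 difference was 0.54 for Malat1 and 0.79 for Neat1. Without NTC 1 alone it did not shrink, at 1.40 for Malat1 and 1.18 for Neat1, beside 1.25 and 1.15 with all libraries. Without both NTC 1 and NTC 3 it was 0.13 for Malat1 and 0.48 for Neat1 (limma adjusted p = 0.872 and 0.741), with the single remaining NTC library assumed to vary like the Gli2CA group. The part of library complexity in the values of both genes was not tested. In sorted bulk RNA, fewer cells of a type and less RNA per cell cannot be told apart.

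**Figure D2:**
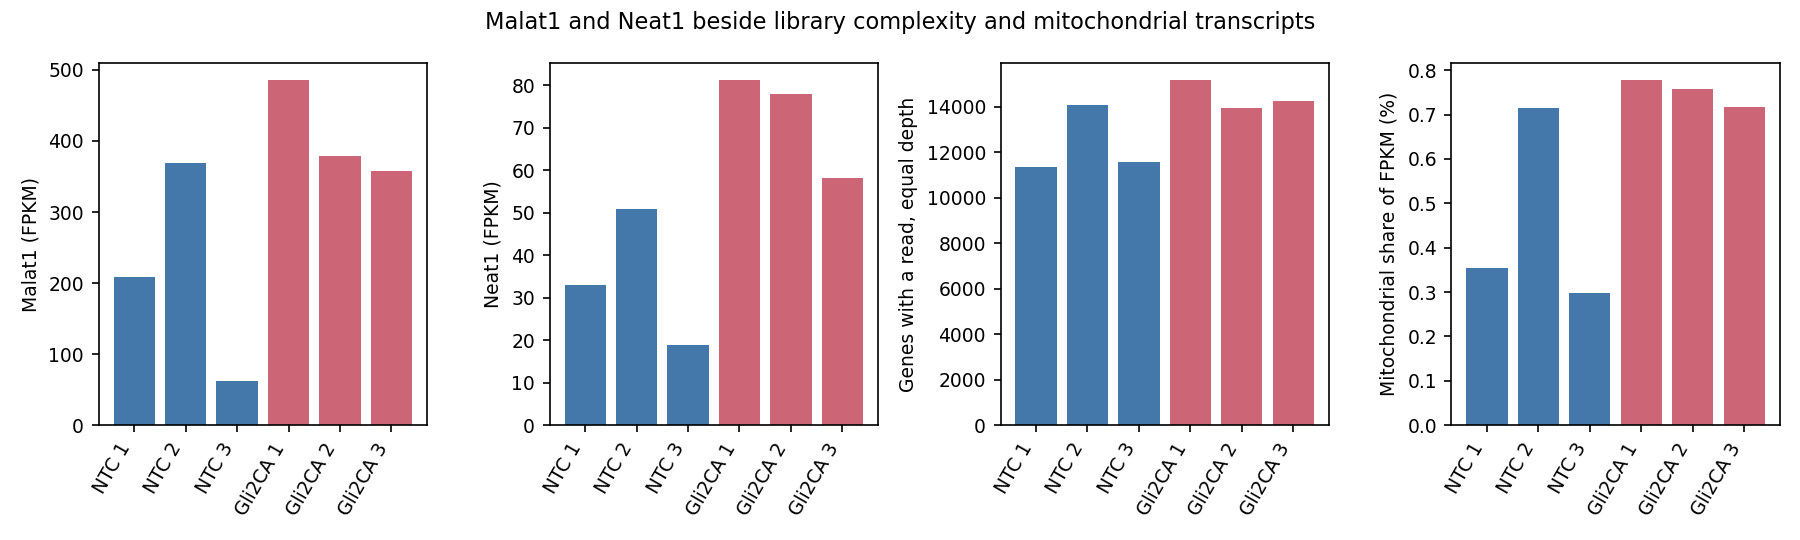
Bars give, for each of the 6 libraries (x axis), the FPKM of Malat1 and of Neat1, the number of genes with a read after thinning to equal depth, and the share of FPKM in mitochondrial transcripts in percent; blue is NTC and red Gli2CA. NTC 1 and NTC 3 are the lowest libraries in all 4 panels, with 11350 and 11575 genes, and NTC 2 lies within the Gli2CA range for Malat1 and for the number of genes.

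Levels of the 2 nuclear RNAs per length depend on the isoform. The deposited Malat1 values gave whole reads in every library with a length of 1867 bases, while the longest annotated transcript has 6983. If all reads came from the longest transcript, mean Malat1 would be 83.0 in place of 310.4 FPKM and mean Neat1 16.4 in place of 53.4. For Neat1 the length used was 6379, between its shortest transcript of 711 and its longest of 20771 bases. Short and long Neat1 share their 5′ part and cannot be told apart in values per gene. The ratio of Malat1 to Neat1 FPKM, which the isoform lengths also scale, was 3.30 in NTC 3 and 4.86 to 7.24 in the other 5 libraries.

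Gas5 was the most abundant snoRNA host, and its values varied less between libraries than those of the other 8 genes. Gas5 (ENSMUSG00000053332, GRCm38 chr1:161034422-161038539, plus strand, 25 annotated transcripts) had 196, 121 and 161 FPKM in NTC 1, 2 and 3 and 149, 147 and 162 in Gli2CA 1, 2 and 3. All 3 Gli2CA libraries lay inside the range of the NTC libraries. The means were 159 ± 37.8 and 153 ± 7.93 (SD, n = 3 each). The log2 difference was -0.03 ± 0.27 (SE, limma adjusted p = 0.974). Its 95% interval of -0.66 to 0.60 was the narrowest among the tested members and still spans differences in either direction. The opposite-strand gene Zbtb37 overlaps Gas5 by 428 bases and had 0 to 11.8 FPKM, and whether the counting used strand is not given in the sources used here. Gas5 made up 64.5 to 78.9% of the summed FPKM of the 7 hosts. That sum was 301, 170 and 232 in NTC and 232, 186 and 237 in Gli2CA, with overlapping groups.

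The starts of the genes are shown because some host RNAs are known as TOP transcripts. RefSeq promoter windows on GRCm38.p6 were present for 7 members, 8 windows in all because Gas5 has 2, and each is given here as 30 bases before and 30 bases from the annotated start. Capitals mark a C followed by at least 4 pyrimidines, searched on the gene's own strand within 10 bases of the start.
Gas5, upstream start, chr1:161034571-161034630, plus strand: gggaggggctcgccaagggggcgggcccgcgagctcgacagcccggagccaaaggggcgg
Gas5, downstream start, chr1:161035136-161035195, plus strand: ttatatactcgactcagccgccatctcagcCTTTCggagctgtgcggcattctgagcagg
Snhg8, chr3:123508307-123508366, minus strand: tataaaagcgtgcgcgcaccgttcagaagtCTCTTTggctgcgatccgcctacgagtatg
Snhg12, chr4:132308648-132308707, plus strand: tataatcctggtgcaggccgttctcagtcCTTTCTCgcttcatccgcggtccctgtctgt
Snhg3, chr4:132353657-132353716, minus strand: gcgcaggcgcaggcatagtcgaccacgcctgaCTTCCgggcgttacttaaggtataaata
Snhg5, chr9:88522868-88522927, minus strand: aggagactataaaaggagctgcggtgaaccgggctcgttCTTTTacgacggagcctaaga
Snhg1, chr19:8723457-8723516, plus strand: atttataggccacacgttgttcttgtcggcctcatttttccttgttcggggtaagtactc
Malat1, chr19:5802643-5802702, minus strand: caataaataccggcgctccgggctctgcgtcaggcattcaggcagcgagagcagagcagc
The tract began exactly at the start in 2 of 8 windows, those of Snhg8 and of the downstream Gas5 start. It lay within 10 bases of the start in 5 of 8, with Snhg12 at 1 base before it, Snhg3 at 2 and Snhg5 at 9 bases after it. The upstream Gas5 start, Malat1 and Snhg1 had none there. Among all 32851 RefSeq mouse promoters, 2.51% had it at the start and 30.7% within 10 bases. Among the 76 promoters of ribosomal protein genes, the textbook TOP genes, these shares were 18.4 and 55.3%. A match describes the letters of the window and is no evidence of a TOP transcript.

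The hosts held 29 annotated snoRNA genes within their bounds, 10 in Gas5, 8 in Snhg1, 5 in Snhg12, 2 each in Snhg3 and Snhg5 and 1 each in Snhg6 and Snhg8. Some of these entries overlap, such as those named Snord80 and Snora16a, which are listed under more than 1 ID. Entries named Snora were searched for ACA just before the last 3 bases, and all others for TGATGA and a last CTGA after it. By name and letters 18 were thus of the C/D kind and 6 of the H/ACA kind. The other 5 lacked the full pattern searched for, though some, such as Snord22, hold CTGA. Examples from GENCODE M21, with those letters in capitals and the host in brackets, are:
Snord47 (Gas5), chr1:161038082-161038158, plus strand: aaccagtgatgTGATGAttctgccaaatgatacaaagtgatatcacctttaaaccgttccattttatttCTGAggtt
Snord87 (Snhg6), chr1:9942463-9942549, minus strand: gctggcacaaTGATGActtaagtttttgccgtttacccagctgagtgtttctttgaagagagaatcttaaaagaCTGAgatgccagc
Snord50a (Snhg5), chr9:88521529-88521600, minus strand: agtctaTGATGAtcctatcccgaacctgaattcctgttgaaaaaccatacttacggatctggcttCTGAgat
Snora24 (Snhg8), chr3:123507937-123508066, minus strand: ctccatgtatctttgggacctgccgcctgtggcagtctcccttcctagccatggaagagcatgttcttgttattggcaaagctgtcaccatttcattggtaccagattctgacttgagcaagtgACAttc
All 29 were listed at 0 in every library. The libraries were made from bead-bound, size-selected RNA, and how reads in overlapping genes were counted is not given. The cause of these 0 values was not tested. The host values are those of the host genes and do not measure the mature snoRNAs.

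Snhg1, Snhg5 and Snhg6 formed a middle level. Snhg1 (ENSMUSG00000108414, chr19:8723475-8726443, plus strand), host of a cluster of C/D snoRNAs, had 44.1, 11.7 and 6.19 FPKM in NTC 1, 2 and 3 and 23.9, 10.1 and 12.5 in Gli2CA 1, 2 and 3. NTC held both its highest and its lowest library. The means were 20.7 ± 20.5 and 15.5 ± 7.40 (SD, n = 3 each), and the log2 difference was -0.05 ± 0.81 (SE, limma adjusted p = 0.986).

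Snhg5 (ENSMUSG00000097195, chr9:88521050-88522929, minus strand), host of Snord50a and Snord50b, had 20.6, 18.3 and 45.4 FPKM in NTC 1, 2 and 3 and 33.3, 10.9 and 24.6 in Gli2CA 1, 2 and 3. NTC 3 was here the highest library, the reverse of its place for Malat1, Neat1 and Snhg1. The means were 28.1 ± 15.0 and 22.9 ± 11.3 (SD, n = 3 each), and the log2 difference was -0.30 ± 0.62 (SE, limma adjusted p = 0.871).

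Snhg6 (ENSMUSG00000098234, chr1:9941959-9944118, minus strand), host of Snord87, had 31.2, 4.51 and 13.2 FPKM in NTC 1, 2 and 3 and 12.5, 13.3 and 22.3 in Gli2CA 1, 2 and 3. The 3 Gli2CA libraries lay within the NTC range. The means were 16.3 ± 13.6 and 16.0 ± 5.47 (SD, n = 3 each), while the log2 difference was 0.28 ± 0.78 (SE, limma adjusted p = 0.910). The lowest NTC value weighs more on the log scale, and the sign of the log2 difference is not that of the difference of means.

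Snhg8, Snhg12 and Snhg3 were low. Snhg8 (ENSMUSG00000104960, chr3:123507552-123508404, minus strand), host of the H/ACA RNA Snora24, had 8.84, 10.2 and 2.22 FPKM in NTC 1, 2 and 3 and 8.87, 4.45 and 9.61 in Gli2CA 1, 2 and 3. Its lowest value, in NTC 3, stood on 30 reads. The log2 difference was 0.23 ± 0.84 (SE, limma adjusted p = 0.932).

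Snhg12 (ENSMUSG00000086290, chr4:132308623-132311024, plus strand), host of Snord99 and 4 other snoRNA entries, had 0.0560, 4.26 and 3.09 FPKM in NTC 1, 2 and 3 and 3.79, 0 and 5.98 in Gli2CA 1, 2 and 3. These stood on 1, 113 and 68 reads and on 105, 0 and 145. One library of each group was thus at or near 0 while the other 4 had 68 reads or more. For Gli2CA 2 a count of 0 allows up to 0.119 FPKM, the level of 3 reads, which covers counting error only. The log2 difference was 0.19 ± 1.05 (SE, limma adjusted p = 0.959), with the widest 95% interval of the members, -2.21 to 2.58.

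Snhg3 (ENSMUSG00000085241, chr4:132348014-132353686, minus strand, 36989 bp from Snhg12) was close to the limit of detection. It had 0, 0 and 0.974 FPKM in NTC 1, 2 and 3 and 0, 0.511 and 0.266 in Gli2CA 1, 2 and 3, on at most 10 reads. A count of 0 allows up to 0.360 and 0.243 FPKM in NTC 1 and NTC 2 and 0.232 in Gli2CA 1. No difference was detectable at this depth, and no test was made. The gene overlaps Rcc1 on the same strand over 5592 bases, and Rcc1 had 0 to 47.3 FPKM, so reads of a shared stretch could have been given to either gene.

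Ordered by mean FPKM over the 6 libraries, the members were Malat1 (310.4), Gas5 (156), Neat1 (53.4), Snhg5 (25.5), Snhg1 (18.1), Snhg6 (16.2), Snhg8 (7.36), Snhg12 (2.86) and Snhg3 (0.292). Gas5 and Neat1 were the only neighbours in this order whose library values did not overlap. With the longest transcript as length the order was the same except that Snhg5 (17.2) stood above Neat1 (16.4), and Snhg6 (11.5) and Snhg8 (5.54) above Snhg1 (5.36). Of the 539 tested genes that GENCODE classes as long noncoding, Malat1 and Gas5 had the third and the sixth highest mean FPKM. That class is not free of coding genes: Cct6a, ranked between Malat1 and Gas5, is also in the list of protein-coding snoRNA hosts used below. No library was high or low for all members: NTC 3 was lowest for 4 of 9 and highest for 2, and NTC 1 was highest for 3.

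**Figure D3:**
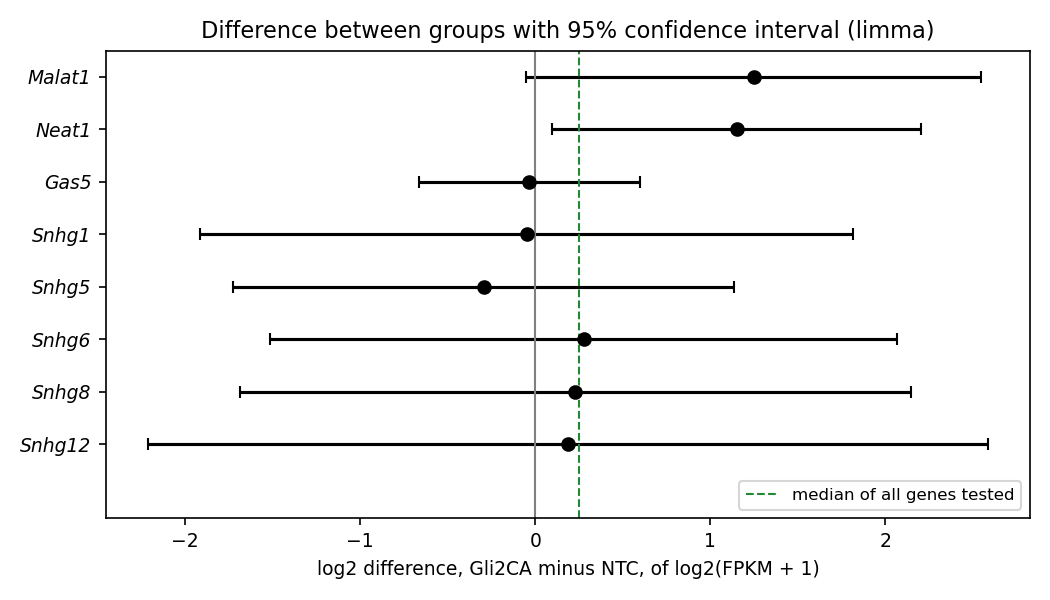
Log2 difference of log2(FPKM + 1), Gli2CA minus NTC (x axis), of the 8 tested members (y axis) from limma; points are estimates and bars 95% confidence intervals, and the dashed line is the median of the 12266 tested genes, 0.25. The interval of Neat1 lies above 0, at 0.10 to 2.20, and those of the other 7 span 0.

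Across the 8 tested members 5 had the higher log2 mean in Gli2CA and 3 the lower, beside 59.7% of all tested genes with a higher mean. The median log2 difference was 0.21, beside 0.25 for all genes. Malat1 and Neat1 had a median of 1.20 and the 6 tested snoRNA hosts one of 0.08, with 3 higher and 3 lower. The 95% interval of each tested host but Gas5 reached beyond 1 log2 unit in both directions. A difference between the nuclear RNAs and the hosts was not tested.

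Other host RNAs of the same kind also gave no gene that passed. Of 8 tested snoRNA-host or TOP-like long noncoding RNAs outside the 9, 6 had a higher and 2 a lower mean in Gli2CA, with a median of 0.53. Groups did not overlap for 1 of them, Snhg15, that is 12.5% beside 16.6% of all tested genes. Snhg15 had 129, 79.0 and 81.9 FPKM in NTC and 50.8, 43.7 and 58.4 in Gli2CA. Its log2 difference was -0.88 ± 0.35 (SE, limma adjusted p = 0.437). Snhg17 had 0.0695, 10.9 and 0 FPKM in NTC and 5.78, 17.4 and 4.46 in Gli2CA, lowest in NTC 1 and NTC 3. Snhg10 did not share this order. It had 0, 0.632 and 8.65 FPKM in NTC and 8.39, 7.06 and 5.53 in Gli2CA, highest in NTC 3. The median of these 8 was -0.08 without both NTC 1 and NTC 3. Of 11 tested nuclear or microRNA-host long noncoding RNAs, 6 were higher and 5 lower, with a median of 0.06. Groups did not overlap for 2, both higher in Gli2CA. That is 18.2%, beside 16.6% of all tested genes in either direction and 10.9% as higher. Mir22hg, the host of miR-22, had 0, 3.62 and 0 FPKM in NTC and 21.6, 14.5 and 18.3 in Gli2CA (log2 difference 3.50 ± 0.91 SE, limma adjusted p = 0.221). Mir22hg was at 0 in NTC 1 and NTC 3, and without both its log2 difference was 2.03. The other was Dleu2, a microRNA host named after its values were seen, with 3.27, 11.2 and 8.78 FPKM in NTC and 12.9, 13.8 and 11.996 in Gli2CA (limma adjusted p = 0.691). Its log2 difference was 0.80, and 0.18 without both NTC 1 and NTC 3.

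The chosen lists of protein-coding snoRNA hosts, TOP genes and snoRNP genes had mostly lower means in Gli2CA, and 0 of their genes passed. Of 29 protein-coding snoRNA hosts, 23 were lower and 6 higher, with a median of -0.26. Among all 191 tested protein-coding genes with an annotated snoRNA inside, 102 were higher and 89 lower, with a median of 0.05. The lower direction is thus that of the chosen list. Groups did not overlap, as lower, for 2 of 29, where the background for lower is 5.79%. Among them was the elongation factor gene Eef1b2, with 243 ± 51.6 against 153 ± 37.2 FPKM (SD, n = 3 each). Of 21 TOP translation genes 16 were lower, with a median of -0.20. Groups did not overlap, as lower, for Eef1b2, Nap1l1 and Eif3k, 14.3% of that list beside the 5.79% background. Of 16 snoRNP protein genes 13 were lower, with a median of -0.39. The pseudouridine synthase gene Dkc1, whose product binds H/ACA RNAs, had 109, 91.1 and 189 FPKM in NTC and 70.0, 43.0 and 40.1 in Gli2CA (log2 difference -1.30 ± 0.40 SE, limma adjusted p = 0.305). The nucleolar chaperone gene Nolc1 had 29.8, 47.6 and 86.4 against 26.5, 19.1 and 25.5. The lists share genes: Eef1b2, Eef2, Tpt1, Naca and Rack1 are in the host and TOP lists, and Nop56 in the host and snoRNP lists. The medians of the lists of 29, 21 and 16 genes stayed below 0 in all 19 alternatives. Of these, the other variance settings and the replicate block by title number cannot change the medians. Without both NTC 1 and NTC 3 they were -0.08, -0.03 and -0.28, beside a median of -0.10 for all genes in that fit. Ribosomal protein transcripts, 83 genes, took 5.14, 3.44 and 4.67% of FPKM in NTC 1, 2 and 3 and 3.28, 3.32 and 3.93% in Gli2CA, so NTC 2 again lay with the Gli2CA libraries, and the part of this in the list medians was not tested.

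Genes of the bodies and pathways in which the RNAs act gave no common direction. Of 17 paraspeckle protein genes 10 were higher and 7 lower, with a median of 0.19. Their core members differed in sign. Sfpq had 73.0, 49.9 and 43.7 FPKM in NTC and 23.1, 21.8 and 26.4 in Gli2CA (log2 difference -1.16 ± 0.42 SE, limma adjusted p = 0.383). Its partner Nono had 166, 208 and 227 in NTC and 288, 284 and 270 in Gli2CA (0.50 ± 0.23, adjusted p = 0.479). In both genes the groups did not overlap and NTC 2 lay with the other NTC libraries. Nuclear speckle protein genes were higher in 7 and lower in 10 of 17 (median -0.16), and genes for RNA decay and 3′ end formation higher in 5 and lower in 7 of 12 (median -0.14).

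Nonsense-mediated decay factors were higher in 9 and lower in 9 of 18, with a median of -0.09. The termination factor gene Gspt1 had 40.3, 35.4 and 52.9 FPKM in NTC and 11.3, 8.07 and 24.2 in Gli2CA (log2 difference -1.61 ± 0.56 SE, limma adjusted p = 0.360). Genes of the mTORC1 pathway were higher in 8 and lower in 9 of 17 (median -0.15). Glucocorticoid receptor and response genes were higher in 6 of 7, with a median of 0.56, which was 0.06 without both NTC 1 and NTC 3. Among them the kinase gene Sgk1 had 89.3, 52.8 and 0.190 FPKM in NTC and 177, 138 and 133 in Gli2CA, with no overlap (log2 difference 3.06, limma adjusted p = 0.481). Without NTC 3 its log2 difference was 1.10. Mitochondrial transcripts were higher in 15 of 15 with a median of 0.74, which was 0.14 without both NTC 1 and NTC 3.

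**Figure D4:**
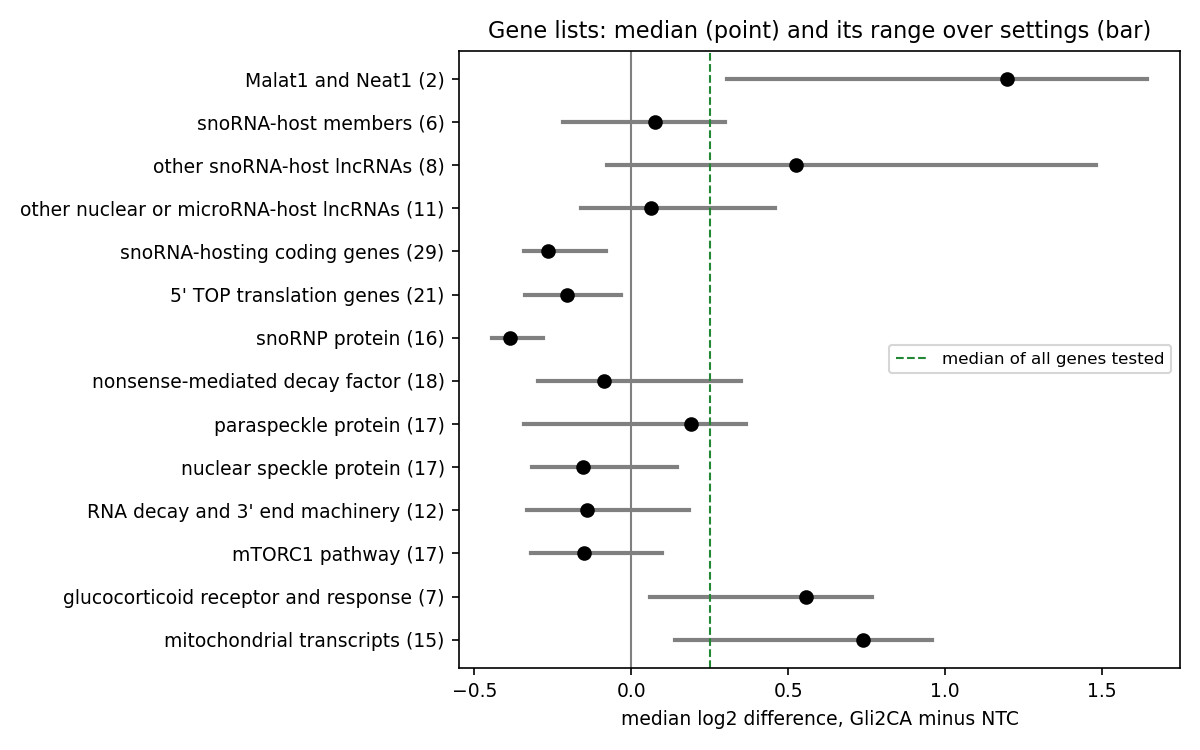
Median log2 difference, Gli2CA minus NTC (x axis), of the tested genes of each list (y axis, number tested in brackets); points are medians as reported, grey bars span the medians over 19 other settings and the dashed line is the median of all tested genes, 0.25. Malat1 and Neat1 span 0.31 to 1.64, and the chosen lists of snoRNA-hosting coding genes, TOP genes and snoRNP genes lie below 0 throughout.

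As a description, genes most like 3 of the members were sought among 4735 protein-coding genes averaging 20 FPKM or more, by Pearson r of log2(FPKM + 1) over the 6 libraries, which share depth, complexity and group. For Malat1 these were Map3k8 (r = 0.997), Lcmt1 (r = 0.990) and Smox (r = 0.989), and 202 genes had an r of at least 0.9. Map3k8, a kinase gene of inflammatory signalling, had 8.40, 27.0 and 0.0952 FPKM in NTC and 47.7, 27.3 and 32.9 in Gli2CA. For Neat1 they were Rasa4 (r = 0.995), the chemokine receptor gene Ccr1 (r = 0.995) and the integrin gene Itga5 (r = 0.988), with 201 genes at 0.9 or more. Malat1 and Neat1 had an r of 0.951 with each other. For Gas5 they were Igsf6 (r = 0.992), Cox6b1 (r = 0.984) and Ntan1 (r = 0.983), with 47 genes at 0.9 or more. The genes nearest to Malat1 and Neat1 were lowest in NTC 3, as were Malat1 and Neat1 themselves.

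Marker sums of other cells are given beside the Malat1 and Neat1 values, and their part in those values was not tested. Monocyte and macrophage markers (10 of 10 above 0 in every library) summed to 2249 to 3846 FPKM in NTC and 3654 to 4229 in Gli2CA. Of these 10 markers, 8 had the higher and 2 the lower mean in Gli2CA. Groups did not overlap for 4, all higher, where the background for higher is 10.9%. Conventional dendritic cell markers summed to 34513 to 45778 and 28642 to 35125. Of these 10 markers, 9 had the lower and 1 the higher mean in Gli2CA. Groups did not overlap for 5 as lower, where the background is 5.79%, and for 1 as higher. Of 12 T or NK cell markers all were above 0 in every library, with sums of 2433 to 4414 in NTC and 1770 to 2452 in Gli2CA, which overlap. Of 8 B cell markers 4 were above 0 in every library, with sums of 679 to 763 and 128 to 255. Most of that sum was Ighm, at 601 ± 130 against 143 ± 42.7 FPKM (SD, n = 3 each), while Cd79b had 3.50 ± 5.98 against 15.6 ± 11.5 and 2 of 4 tested B cell markers had the higher mean in Gli2CA. Of 9 neutrophil markers 7 were above 0 in any library, with Ly6g and Retnlg at 0 in all, and the sums were 46.9 to 76.8 and 11.7 to 244. Of 8 melanoma markers 4 were above 0 in any library, with Mlana, Tyr, Tyrp1 and Dct at 0 in all, and the sums were 4.83 to 42.8 and 22.4 to 50.05. Among them Sox10 was at 0 in every NTC library and at 19.8, 12.1 and 18.4 FPKM in Gli2CA (limma adjusted p = 0.188), while Kit had 4.83, 41.5 and 20.4 FPKM in NTC and 25.9, 4.39 and 24.4 in Gli2CA. Of 9 fibroblast or endothelial markers 9 were above 0 in any library, with sums of 1.503 to 3380 in NTC, the highest in NTC 2, and 69.8 to 340.1 in Gli2CA.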

How the data were processed

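The 6 libraries, 3 per group, hold RNA of CD11c-sorted cells. Per the labels' protocols, poly-T beads were used to enrich messenger RNA, and the NEBNext Ultra II kit with random hexamers to build libraries. FPKM values of all libraries were deposited by the authors in 1 table. Aligner, counter, genome build, annotation and strand setting: not given in the sources used here. Columns were matched by the numbers in the sample descriptions, and libraries are named by title number, so NTC 2 and NTC 3 carry other numbers in their descriptions. Symbols, coordinates and lengths came from a table of gene IDs, GENCODE M21 on GRCm38 and RefSeq.

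Reads were recovered by dividing FPKM times the gene's mean transcript length by a constant of each library. For values of at most 2000 reads, 95.7 to 96.0% came out whole within 0.05 of a read. Malat1 needed a length of its own, the smallest that gave whole reads in every library. The values log2(FPKM + 1) were tested with limma 3.58.1 (R 4.3.3), with group as the only term and a variance trend on mean expression. P-values were two-sided and Benjamini-Hochberg adjusted over all 12266 genes averaging 1 FPKM or more, with a threshold of 0.05. Intervals are limma's 95% intervals. A fold on this scale understates that of low genes. Figures used Python 3.11.15 and matplotlib 3.10.9.

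The members, the 19 other gene lists (272 of 274 symbols over all lists matched), the tests and the alternatives were chosen with earlier results of these data known. Named genes are the 9 members, up to 3 tested genes of smallest p per list, and the 3 most correlated genes for Malat1, Neat1 and Gas5. Some items that the rule takes in are not reported here. Zbtb37 and Rcc1 are named for their overlap with members. Settings tried instead were no filter or a minimum mean of 5, a pseudocount of 0.1, one FPKM sum per library, quantile normalization, median-of-ratios scaling, other variance settings, library weights, limma's voom on recovered reads, a block for the replicate numbers, and the removal of libraries.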

Additional observations from a re-analysis of the deposited data

How the results depend on the processing

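The number of members passing stayed 0 in all 19 alternatives, and the log2 differences of Malat1 (0.13 to 1.81) and Neat1 (0.48 to 1.48) stayed above 0, with limma adjusted p of 0.151 to 0.913 and 0.117 to 0.913. The changed filters, the other variance settings and the replicate block by title number cannot alter a log2 difference, so they are no check of its sign. With 3 libraries a group, leaving out 1 library gave 0.54 to 1.81 for Malat1, 0.79 to 1.48 for Neat1, 0.0183 to 0.0394 percentage points for the difference in their summed share, 0.04 to 0.58 for the median of the members and 1 to 2 members with groups that did not overlap. That count was 2 with median-of-ratios scaling, and without NTC 2 or without Gli2CA 3, where Malat1 joined Neat1. It was 4 without both NTC 1 and NTC 3: Neat1, Gas5 and Snhg6 higher and Snhg8 lower. Of all tested genes 16.6% had groups that did not overlap as reported, 16.4% with median-of-ratios scaling, 37.6% without NTC 2, 26.6% without Gli2CA 3 and 54.0% without both NTC 1 and NTC 3. The difference in summed share was 0.00621 percentage points without both, a setting added for it after the data were seen. Over all genes, 21 passed with quantile normalization, 18 higher and 3 lower, where the median of all genes was -0.03 in place of 0.25, and 0 passed in the other 18. Genes at an unadjusted p under 0.05 numbered 1304 as reported, 2450 once NTC 2 was left out, 817 once Gli2CA 1 was, and 393 under a replicate block by description number.

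The signs of the snoRNA hosts depended on the setting, and the cause was not tested. With library weights, Gas5 turned to 0.0038, Snhg1 to 0.22 and Snhg12 to -0.24, and with voom to 0.0059, 0.12 and -0.46. Rescaling to one FPKM sum gave 0.0014 for Gas5, and quantile normalization gave -0.36 for Snhg8 and -0.72 for Snhg12. Leaving out 1 library gave -0.22 to 0.13 for Gas5, -0.63 to 0.70 for Snhg1, -0.62 to 0.14 for Snhg5, -0.37 to 0.90 for Snhg6, -0.34 to 0.56 for Snhg8 and -0.53 to 1.03 for Snhg12. Without NTC 1, Gas5 was 0.13, Snhg1 0.70 and Snhg12 -0.53. Without NTC 2, Snhg6 was -0.37. Without NTC 3, Snhg5 was 0.10 and Snhg8 -0.34. Without Gli2CA 1, Snhg12 was -0.10. Without Gli2CA 2, Snhg1 was 0.19 and Snhg5 0.14. Without Gli2CA 3, Snhg1 was 0.05 and Snhg12 -0.37. Without both NTC 1 and NTC 3, Gas5 was 0.34, Snhg1 0.28, Snhg5 0.18, Snhg8 -0.43 and Snhg12 -0.71. A minimum mean of 5 left Snhg12 out.

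Libraries with the same title number did not deviate together (r of -0.04, -0.002 and -0.007 over the 3 pairs). NTC 2 and Gli2CA 3, which share a description number, had an r of -0.06. The labels state no pairing, and so few libraries cannot show whether the samples were paired. A replicate block by title number kept 0 genes passing. It cannot change the log2 differences or the overlap of the groups, since each title number occurs once per group. A replicate block by description number, for which NTC 1 and Gli2CA 1 as well as NTC 2 and Gli2CA 3 share a number, gave 0.014 for Gas5, 0.54 for Snhg5 and -0.037 for Snhg8. At most 10 reads a library stood behind Snhg3, too few to show a difference.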
